A study of Mus musculus with 4 samples.

Results

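Osteopontin is the secreted glycoprotein encoded by Spp1. This section describes Spp1 together with the genes of its best known receptors, the hyaluronan receptor Cd44 and the integrin chains Itgav and Itgb3, in mouse tumours. The 4 genes were taken by symbol from the 32285 genes of each matrix. They were selected on measured values, since earlier results of these data showed Spp1 moving differently in CD8 T cells, neutrophils and macrophages. So Spp1 differences in those 3 cell classes are given as descriptions, with no test. The tumours were MC38b (MC38 is a mouse colon carcinoma line), grown in mice whose strain, age and sex are not given in the labels. The mice received PBS (saline), an antibody against the checkpoint receptor PD-1, or that antibody plus one against TL1A, a TNF-family cytokine, and tumours were taken 24 h after the 2nd dose. There were 4 single-cell RNA libraries, 2 from PBS, 1 from anti-PD-1 and 1 from both antibodies (the combination). No library of anti-TL1A alone was analysed here. Animals were processed one by one, 2 for saline and 4 for treated mice per the labels' protocols, and pooled before sorting, so a treated library is 1 pool, and whether the PBS libraries hold different animals is not stated. Live CD45+CD3+, CD45+CD3- and CD45-CD3- cells were sorted and mixed back at 9:9:2, so the shares of classes in a library were set in part by the sort.

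Osteopontin is best known from bone, where it binds mineral, and in inflamed tissue and tumours it is made by macrophages and by activated lymphocytes. It carries an arginine-glycine-aspartate (RGD) motif, the short peptide that integrins such as the alpha-v beta-3 pair encoded by Itgav and Itgb3 hold on to, and it also binds CD44, a surface glycoprotein whose main ligand is hyaluronan. Itgav pairs with several beta chains, and Itgb3 also pairs with the platelet chain Itga2b, so the message of 1 chain does not show which receptor a cell carries.

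The stretch that encodes the RGD motif is shown because it is what links Spp1 to the integrin genes followed here. In transcript Spp1-201 (7 exons, 882 coding bases), codons 144 to 146 encode the motif, in exon 6. The 60 bases of that exon around it lie at chr5:104439457-104439516 on the plus strand of GRCm38, with the 3 codons at 104439481 to 104439489 in capitals.
Spp1-201: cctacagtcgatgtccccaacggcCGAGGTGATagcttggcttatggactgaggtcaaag
Of 7 annotated transcripts, 6 hold these codons and Spp1-206 does not, and the libraries read transcript ends, so they do not tell the forms apart. Spp1 itself (ENSMUSG00000029304) spans chr5:104435118-104441050, Cd44 chr2:102811141-102901665 on the minus strand, Itgav chr2:83724397-83806916 and Itgb3 chr11:104608000-104670476, all in GRCm38. The genes next to Spp1 that encode related mineral-binding proteins were almost silent: Ibsp had 1 UMI and Mepe 4 UMIs, all in the second PBS library, and Dmp1 and Dspp had 0 UMIs in all libraries. A UMI is 1 counted molecule.

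The libraries held 6448 to 13231 barcodes and 78648222 to 142600208 UMIs, with a median of 3588 UMIs per barcode for anti-PD-1 and 7098 to 7798 for the others. Barcodes were shared between libraries far more often among 3 of them: the PBS libraries shared 673 barcodes with each other and 1255 and 1778 with anti-PD-1, while the combination library shared 21 to 39 with any other. Among those 3 libraries, the shared barcodes whose UMIs differed by at least 10 times had narrow ratios, with medians of 41.2 to 132. A shared barcode was kept only in a library that held at least 10 times its UMIs in every other, which left out 330, 901, 2313 and 71 barcodes of PBS 1, PBS 2, anti-PD-1 and the combination. After filters and removal of doublets, 5926, 5142, 9662 and 9875 cells remained. Cells were clustered without the 4 genes and named from marker genes, so each class name stands for clusters that express those markers. The CD45-negative cells had at most 0.436 CPM (UMIs of a gene scaled to 1000000 UMIs of its class or cluster) of the epithelial gene Krt8 in any cluster, so tumour cells were not named from keratins. Of the CD45-negative cells kept, 342 of 349 and 154 of 156 in the PBS libraries carried a shared barcode, as did 64 of 288 for anti-PD-1 and 0 of 515 for the combination, and values for this class are given with and without them. In the text, 4 values in a row are always in the order PBS 1, PBS 2, anti-PD-1, combination. Both treated libraries are compared with the same PBS pair, and intervals cover counting error only.

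Spp1 was highest in neutrophils, and B cells, conventional CD4 T cells and regulatory T cells had the least. Neutrophils had 1284, 3051, 1024 and 528 CPM, and NK cells 339, 281, 322 and 398 CPM. Monocytes and macrophages had 241, 228, 168 and 234 CPM, and CD45-negative cells 95.5, 97.6, 105 and 144 CPM. In this order, from neutrophils to CD45-negative cells, the ranges over the libraries did not overlap between neighbours, and the CD45-negative range lay above that of CD8 T cells. CD8 T cells had 19.9, 14.1, 34.4 and 88.7 CPM and dendritic cells 23.7, 26.3, 10.2 and 23.7 CPM. Below them, the ranges of neighbours overlapped: regulatory T cells had 4.47, 7.41, 14.2 and 7.43 CPM, conventional CD4 T cells 4.95, 4.15, 8.83 and 11.2 CPM, and B cells 7.90, 4.18, 3.99 and 6.49 CPM. Weighted by the number of cells, NK cells held the most Spp1 UMIs of any class in 3 of 4 libraries, 34.8%, 25.4%, 44.1% and 32.5% of all Spp1 UMIs in kept cells. CD8 T cells held 2.92%, 2.20%, 6.62% and 13.1%, and neutrophils 4.49%, 19.8%, 3.65% and 1.41%.

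**Figure D1:**
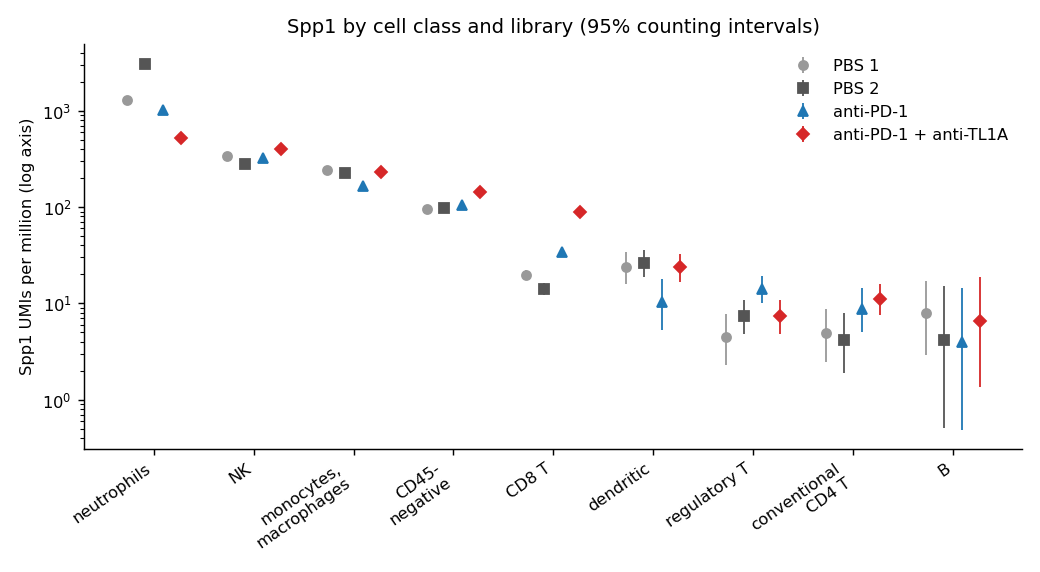
Spp1 in CPM (log axis) in 9 cell classes, 1 point per library, with exact Poisson 95% intervals that cover counting error only. The combination point is the lowest of the 4 in neutrophils (528) and the highest in CD8 T cells (88.7), while B cells stay between 3.99 and 7.90.

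Neutrophils, short-lived granulocytes, had the highest level and the widest spread. The PBS libraries stood at 1284 and 3051 CPM, both above anti-PD-1 at 1024 and the combination at 528. The fitted log2 differences from PBS were -1.03 for anti-PD-1 and -2.07 for the combination, and PBS 2 weighed on both: without it they were -0.27 and -1.30, and without PBS 1 -1.50 and -2.56. Most of this Spp1 sat in 1 of the 2 neutrophil clusters. The cluster led by the chemokine genes Cxcl3 and Cxcl2 had 4395, 5012, 3861 and 2063 CPM, and the cluster led by the granule genes S100a9, S100a8 and Retnlg had 139, 180, 211 and 212 CPM. So within the first cluster the combination was lowest, and in the second both treated libraries were above both PBS libraries. The first cluster made up 26.5%, 58.1%, 21.1% and 16.9% of neutrophils (35, 111, 31 and 30 cells) and held 92.1%, 97.6%, 84.0% and 66.7% of their Spp1 UMIs. With the 2 clusters held at equal shares in every library, the log2 differences were -0.23 for anti-PD-1 and -1.0 for the combination. The chemokine cluster had 7419 CPM of S100a8 against 20139 in the other, and 77.8 against 84.8 CPM of the macrophage gene Csf1r. Single cells weighed on these sums: the cell with most Spp1 held 101, 411, 52 and 44 UMIs, and without it the class stood at 1007, 2463, 853 and 439 CPM. These cells had 254, 2, 59 and 115 UMIs of S100a8 and S100a9 together. The PBS 2 cell thus had almost none in its 10238 UMIs, and it counts as a neutrophil only through its cluster.

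Monocytes and macrophages showed little difference between PBS and the combination, and less Spp1 after anti-PD-1 alone. The fitted log2 differences were -0.36 for anti-PD-1 and 0.03 for the combination. The Spp1 levels of the clusters ranged widely. A small cluster led by the metalloelastase gene Mmp12, the haem oxygenase gene Hmox1 and the arginase gene Arg1 (24, 33, 32 and 39 cells) had 3222, 1143, 1449 and 1317 CPM and held 42.1%, 23.0%, 25.9% and 25.4% of the class's Spp1 UMIs. The complement-rich macrophages led by Ms4a7 and C1qa had 188, 313, 221 and 273 CPM, and the cluster led by H2-Ab1 and Ly6i had 229, 191, 187 and 304 CPM. The monocyte cluster led by Chil3 and F13a1 was low in all libraries, at 27.1, 20.3, 3.59 and 27.7 CPM. In none of 7 clusters was anti-PD-1 above both PBS libraries, and in 3 it was below both. The high value of PBS 1 in the Mmp12 cluster rested on 1 cell with 684 Spp1 UMIs, 24.4% of the class. Without the top cell of each library the class stood at 182, 207, 157 and 213 CPM. The shared barcodes bear on this class too: they were 16.2% and 24.5% of its PBS cells and at most 0.183% of its treated cells, and with all of them left out the log2 differences were -0.13 and 0.26.

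CD8 T cells moved the other way from neutrophils. Spp1 UMIs numbered 295, 223, 533 and 2344 in 1312, 1153, 2096 and 2478 cells, or 19.9, 14.1, 34.4 and 88.7 CPM. The combination stood highest, anti-PD-1 lay between it and the PBS libraries, and the counting intervals did not overlap (31.6 to 37.5 CPM for anti-PD-1, 85.1 to 92.3 CPM for the combination, at most 22.3 CPM for PBS). The fitted log2 differences were 1.11 for anti-PD-1 and 2.40 for the combination. The combination was above both PBS libraries in 7 of 8 clusters, and anti-PD-1 in 3 of 8. The combination's highest level was in the cluster led by Gpm6b, Dlg2 and the checkpoint gene Lag3 (37.4, 6.63, 62.0 and 199.8 CPM). There 1 combination cell held 557 Spp1 UMIs, and in the other libraries another cluster stood higher. The cluster led by Gm156 and the granzyme gene Gzmf had 25.7, 35.8, 63.4 and 118.6 CPM, and the one led by Nrgn and Pdcd1, the gene of PD-1 itself, 43.9, 32.9, 33.7 and 89.0 CPM. The cycling cluster led by Hbb-bs and Nusap1 had 26.5, 10.9, 40.1 and 65.8 CPM. Clusters with early or memory features had little in all 4 libraries: 1.51, 2.83, 2.45 and 3.88 CPM in the one led by Lef1, and 1.874, 0, 1.866 and 5.61 CPM in the one led by Gzmk. The Lef1 cluster made up 29.9%, 22.5%, 18.4% and 10.6% of the class. With cluster shares held equal, the log2 differences were 0.93 and 2.11.

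**Figure D2:**
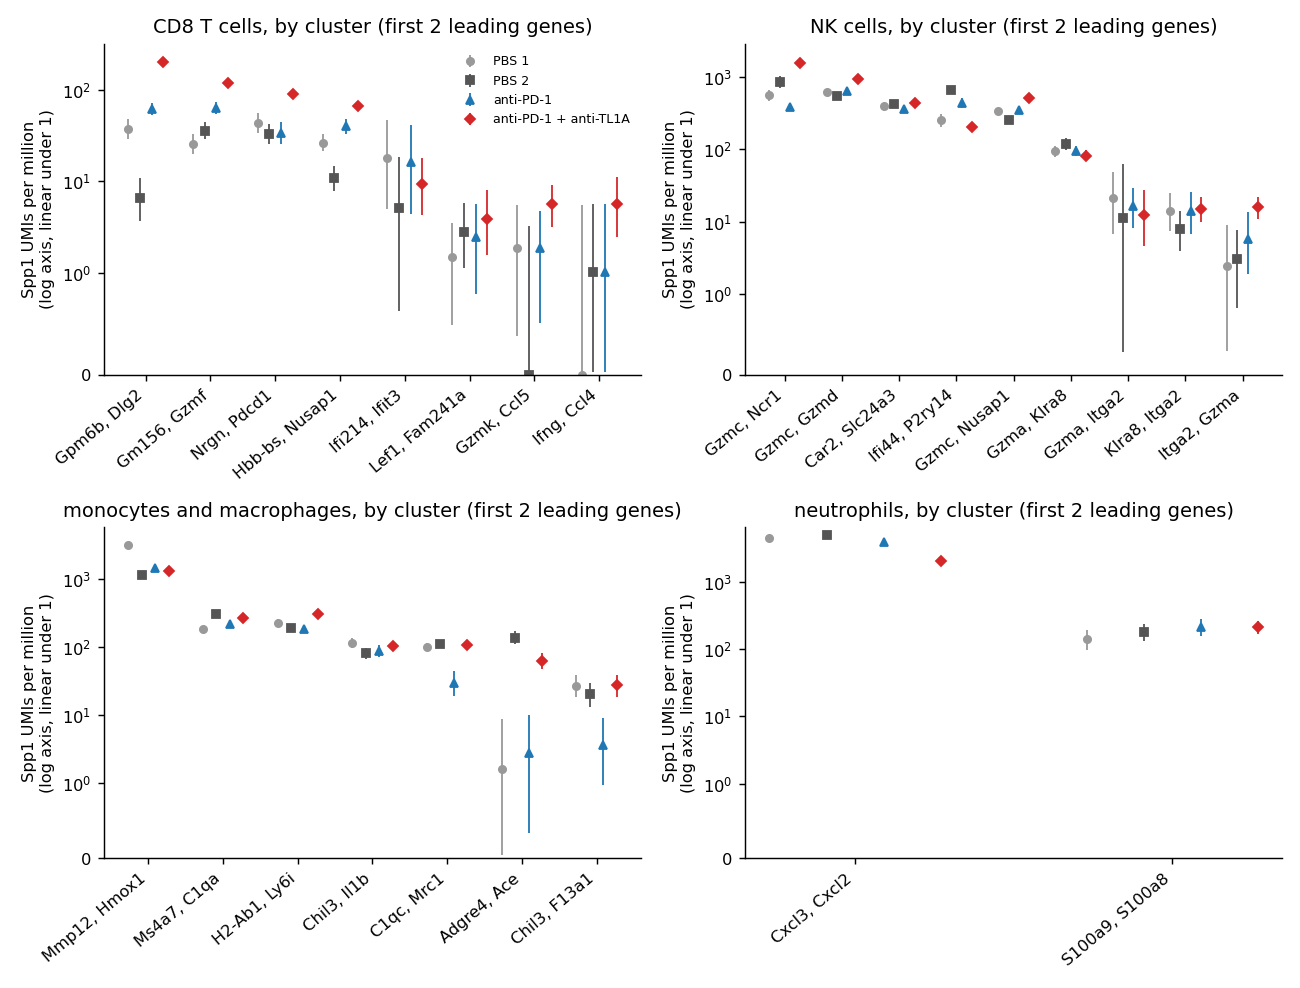
Spp1 in CPM (log axis, linear under 1) in the clusters of 4 classes, each named by its first 2 leading genes, 1 point per library with exact Poisson 95% intervals. Levels within a class span over an order of magnitude in every panel, as in neutrophils, where the Cxcl3 cluster lies at 2063 to 5012 and the S100a9 cluster at 139 to 212.

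Few CD8 T cells carried the Spp1 message. The share with at least 1 Spp1 UMI was 6.33%, 6.42%, 7.25% and 13.4%, and the share with at least 5 was 1.30%, 1.21%, 1.29% and 3.91%. On the second measure anti-PD-1 lay within the PBS pair, and the exact 95% interval of the combination (3.19% to 4.75%) lay above those of the other libraries, the highest of which ended at 2.07%. Depth differed between libraries (median 9316, 11302, 6043 and 8899.5 UMIs per CD8 T cell), so cells were also thinned to 1000 UMIs each. The shares were then 1.30%, 0.347%, 1.65% and 3.72% (17, 4, 34 and 92 cells). Of the CD8 T cells' Spp1 UMIs, 50% lay in 12, 10, 23 and 17 cells. In the combination, 1 cell of the Gpm6b cluster held 557 Spp1 UMIs of its 25667, or 23.8% of the class. That cell had 18 Cd3e, 24 Cd8a and 16 Cd8b1 UMIs, and 0 of Ncr1, Apoe, Lyz2, Csf1r, C1qa, C1qb, C1qc, S100a8 and S100a9. Without the top cell of each library the levels were 17.2, 12.6, 32.6 and 67.7 CPM, in the same order.

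CD8 T cells with a Spp1 UMI differed from the rest of their class in other genes in every library, as a description within libraries. They were deeper, with medians of 16393, 19621.5, 11021.5 and 13713.5 UMIs against 9023, 10955, 5830.5 and 8407, and a deeper cell is more likely to show any gene. On the CPM scale, which divides by depth, the granzyme gene Gzmc was higher in cells with Spp1 by 3.34, 1.67, 1.41 and 1.76 log2 units, and Gzmd by 1.69, 3.20, 1.47 and 2.31. Gzmb was higher by 0.64, 0.23, 0.35 and 0.41, and the perforin gene Prf1 by 1.13, 0.15, 0.66 and 0.67. Not all effector genes went that way. The granzyme gene Gzma was lower, by -4.31, -0.17, -0.18 and -0.15, and the chemokine gene Ccl4 by -0.47, -0.58, -0.96 and -1.23. The interferon-gamma gene Ifng differed by 0.02, -0.17, -0.58 and -1.22. Tcf7, a transcription factor gene of naive and memory T cells, was lower, by -1.90, -1.47, -2.43 and -2.04. Among the receptors, Itgav was higher by 0.75, 0.53, 0.65 and 0.40 and Cd44 lower by -0.27, -0.44, -0.26 and -0.35. The cells chosen after thinning to 1000 UMIs, only 4 of them in PBS 2, also had more Gzmc (4.48, 5.36, 1.2 and 2.00) and more Itgav (0.91, 0.51, 1.03 and 0.62). Those values rest on few counts: 5, 4, 3 and 18 Gzmc UMIs and 9, 2, 19 and 66 Itgav UMIs in the thinned cells with Spp1. Cd44 did not keep its sign there (0.93, -0.19, 0.62 and -0.30), and Gzmd had 0 UMIs in those cells in all libraries but the combination. Gzma did not keep its sign either, at 0.94 in anti-PD-1 and -1.05 in the combination. Ccl4 stayed lower, by -0.33, -0.80, -0.83 and -1.62, and Ifng differed by 0.40, 1.74, 0.07 and -0.46. The macrophage genes did not move one way: Lyz2 differed by 0.72, 1.85, -1.74 and 0.28 and C1qa by 1.14, 1.08, -1.13 and 0.20 between unthinned cells with and without Spp1, so both were higher with Spp1 in the PBS libraries and lower in anti-PD-1. Their part in these differences was not tested.

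**Figure D3:**
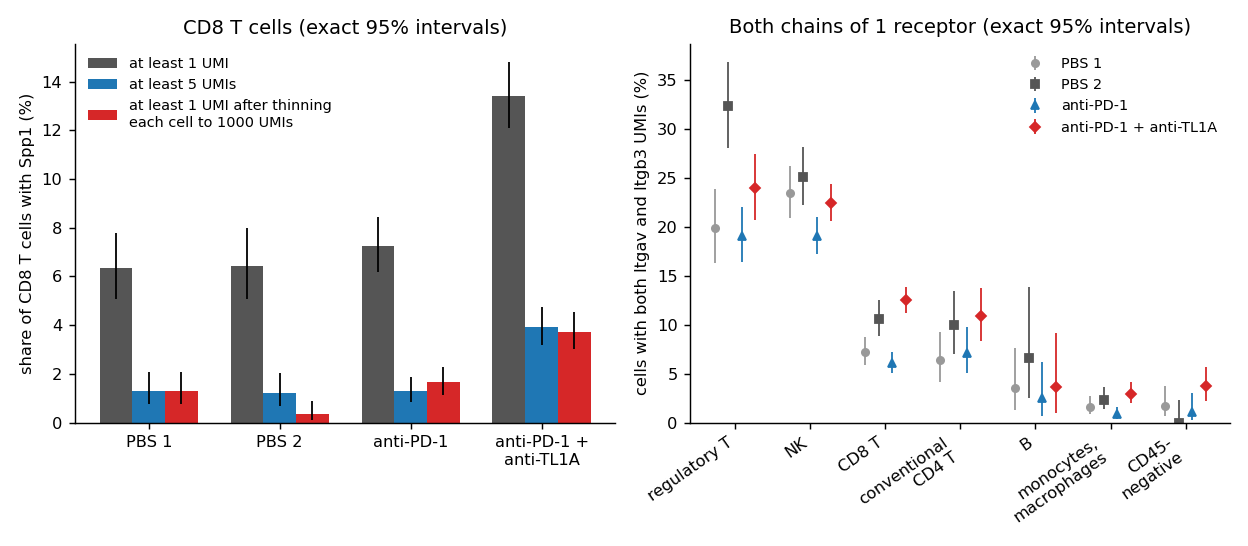
Left, the share of CD8 T cells with Spp1 by 3 measures in each library, and right, the share of cells with UMIs of both Itgav and Itgb3 in 7 classes, with exact binomial 95% intervals. The combination has the tallest bar on each CD8 measure (13.4%, 3.91% and 3.72%), and both integrin genes meet most often in regulatory T cells and NK cells.

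RNA from broken cells enters all droplets, and Spp1 is abundant in macrophages, so B cells, which are not known as a source of Spp1, were used to read that background. B cells had 6, 2, 2 and 3 Spp1 UMIs in 168, 91, 162 and 109 cells, and 2.98%, 2.20%, 1.23% and 1.83% of them had a Spp1 UMI at median depths of 3887, 4883, 2792 and 3730. Per 100 UMIs of the macrophage genes Apoe, C1qa, C1qb, C1qc and Lyz2, B cells had 2.28, 1.07, 0.810 and 1.30 Spp1 UMIs, and the monocytes and macrophages themselves 1.19, 1.40, 0.844 and 1.45. The same ratio was 26.8, 26.9, 67.8 and 135 in CD8 T cells and 583, 373, 445 and 497 in NK cells. The reference was mostly Apoe in B cells, 82.6% to 93.5% of it, against 24.0% to 32.9% in monocytes and macrophages. Over Lyz2 and the C1q genes alone, a choice made after seeing the data, the ratio was 14.0, 6.67, 12.5 and 7.50 in B cells, above the 1.77, 1.92, 1.15 and 1.91 of monocytes and macrophages, and 43.4, 40.2, 97.6 and 207 in CD8 T cells. If every UMI of the macrophage and neutrophil reference genes in a class had come with Spp1 at the ratio of its source class, CD8 T cells would still hold 21.5, 13.9, 71.5 and 90.9 times that amount and B cells 1.90, 0.732, 0.950 and 0.897 times. Dendritic cells held 1.91, 2.44, 1.12 and 1.54 times, where Lyz2 made up 79.8% to 90.0% of the reference. The B cell multiples rest mostly on Apoe, at 290, 328, 460 and 411 CPM in B cells against 28.2, 17.4, 15.5 and 22.6 CPM in CD8 T cells. So they do not calibrate the multiples of CD8 T cells. These multiples cover free RNA of macrophages and neutrophils only. NK cells held 25.4% to 44.1% of all Spp1 UMIs in kept cells and CD45-negative cells 12.1% to 27.8%, and free Spp1 RNA from them was not tested. The reference meant for CD45-negative cells, Krt8 and Krt18, had only 3 to 6 UMIs per library in that class. The macrophage genes summed to 74.0, 52.7, 50.8 and 65.5 CPM in CD8 T cells, with neither treated library above PBS 1, and none of the 5 genes was at 0. In the CD8 T cells with 0 UMIs of Apoe, C1qa, C1qb, C1qc and Csf1r, Spp1 stood at 14.7, 14.6, 33.1 and 103 CPM. Of the 1793 Spp1 UMIs behind the 103 CPM, 557 were in the 1 combination cell described above. Lyz2 was not used in choosing those cells, so they may hold Lyz2 UMIs.

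**Figure D4:**
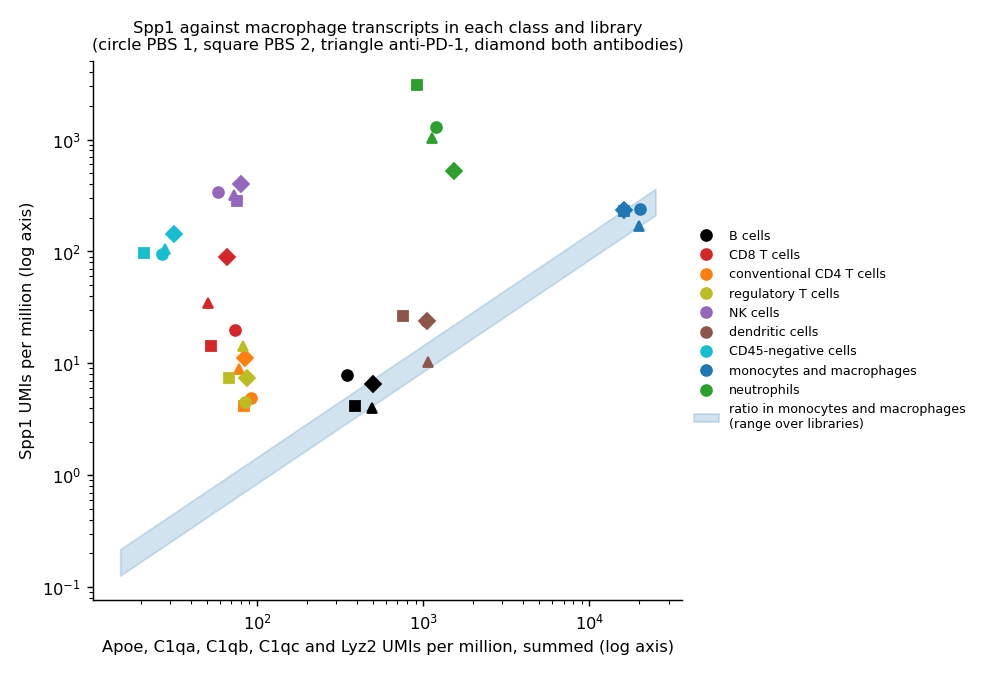
Spp1 against the summed macrophage genes Apoe, C1qa, C1qb, C1qc and Lyz2, both in CPM on log axes, 1 point per class (colour) and library (shape); the band is the range of the ratio in monocytes and macrophages (0.844 to 1.45 Spp1 UMIs per 100). B cells, whose reference is mostly Apoe, lie on or next to the band, and CD8 T, NK, CD45-negative cells and neutrophils lie far above it.

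NK cells were the class with most Spp1 among lymphocytes, and neither treatment passed the test there. Of NK cells, 29.9%, 25.7%, 27.8% and 25.6% had a Spp1 UMI, and 15.1%, 13.1%, 11.3% and 11.8% had at least 5. The level of 339, 281, 322 and 398 CPM placed anti-PD-1 between the PBS libraries and the combination above both. The log2 differences were 0.14 ± 0.15 (SE, adjusted p 0.79) for anti-PD-1 and 0.35 ± 0.14 (adjusted p 0.28) for the combination, by edgeR's quasi-likelihood test, where 1.25% and 1.72% of all genes tested passed. With all shared barcodes left out, which removed only PBS cells of this class, the differences were 0.60 (adjusted p 0.091) and 0.81 (adjusted p 0.0047), and leaving out PBS 1 or PBS 2 gave 0.54 and 0.19 for the combination. Levels differed widely between NK clusters. The cluster led by the granzyme genes Gzmc, Gzmd and Gzme had 619, 541, 632 and 915 CPM and the one led by Car2 391, 412, 354 and 436 CPM. Over all libraries those 2 clusters had 327 and 233 CPM of the tissue-residence integrin gene Itga1. Clusters led by Gzma and Itga2, the integrin of circulating NK cells, had little Spp1: the largest had 2.48, 3.02, 5.85 and 15.7 CPM, with 27.4 CPM of Itga1 and 297 CPM of the NK transcription factor gene Eomes, against 48.9 CPM of Eomes in the Gzmc cluster.

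In the CD45-negative cells, which hold the tumour and stromal cells of the sort, Spp1 rose in the combination, and this depended on cells with shared barcodes. The levels were 95.5, 97.6, 105 and 144 CPM, with the PBS pair close together and the combination above all others. The log2 differences were 0.62 ± 0.13 (SE, adjusted p 0.0012) for the combination and 0.24 ± 0.13 (adjusted p 0.34) for anti-PD-1, where 2.36% and 3.86% of genes passed. The combination against anti-PD-1 gave 0.38 ± 0.15 (adjusted p 0.17), where 2.82% of genes passed. In 6 of 8 clusters the combination lay above both PBS libraries. Spp1 was detected in 62.5%, 68.6%, 57.6% and 71.8% of these cells, at medians of 67930, 79593, 47547 and 63608 UMIs. With all shared barcodes left out, 7 and 2 PBS cells remained, and the differences were -0.22 for the combination (adjusted p 1) and -0.50 for anti-PD-1. With doublets kept, the combination gave 0.48 (adjusted p 0.058). The macrophage genes summed to 26.7, 20.7, 28.0 and 31.4 CPM in this class, and their part in the result was not tested.

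The other T cells and the dendritic cells had few Spp1 UMIs. In regulatory T cells, anti-PD-1 stood at 14.2 CPM (41 UMIs) above the other 3, with a log2 difference of 1.28 ± 0.41 (adjusted p 0.15). With doublets kept it was 2.35 and passed (adjusted p 1.7e-08). In conventional CD4 T cells both treated libraries were above the PBS pair, and the differences of 1.01 ± 0.56 and 1.28 ± 0.50 had adjusted p of 0.81 and 0.84. Of the 31 UMIs of the combination there, 19 were in 1 cell. In dendritic cells anti-PD-1 was lowest, with -1.21 ± 0.46 (adjusted p 0.55). In these 3 classes 0.708%, 0.0377% and 0.104% of all genes passed for anti-PD-1. Spp1 in B cells was under the count filter and was not tested.

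Cd44, the receptor shared by most leukocytes, was highest in neutrophils, at 5770, 4842, 4267 and 4268 CPM, followed by monocytes and macrophages at 1363, 1493, 1227 and 1400 CPM. Neither range overlapped with the next class. Dendritic and CD45-negative cells came next (means 582 and 572 CPM, overlapping), then conventional CD4 and regulatory T cells (470 and 461 CPM, overlapping), and NK, CD8 T and B cells were lowest (305, 273 and 246 CPM, overlapping). Cd44 passed edgeR's test in 0 of 9 classes against PBS with either treatment, and DESeq2 also gave 0, with 1 of 9 at an unadjusted p under 0.05 for each treatment. The log2 differences ran from -0.58 to 0.38, both ends in B cells. In neutrophils, where the treated libraries were both below both PBS libraries, the differences were -0.26 ± 0.45 and -0.34 ± 0.45 (adjusted p 0.998 and 0.999). There edgeR called 0% of genes in either comparison, with 249 and 264 of 5453 at an unadjusted p under 0.05.

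Itgav, the alpha chain, was highest in regulatory T cells, at 1362, 1515, 1587 and 2106 CPM, with no overlap with the next class. CD8 T cells followed at 351, 418, 343 and 508 CPM, then NK cells (mean 338 CPM) and monocytes and macrophages (270 CPM), each overlapping with its neighbour, down to B cells (116 CPM) and dendritic cells (91.3 CPM). Between 92.9% and 95.9% of regulatory T cells had an Itgav UMI. In regulatory T cells and CD8 T cells the combination was the highest library, and the differences from PBS did not pass: 0.57 ± 0.20 (adjusted p 0.31) and 0.42 ± 0.12 (adjusted p 0.12), where 0.544% and 1.82% of genes passed. In CD8 T cells the call was gained under 3 settings: thinned sums (adjusted p 0.026), no filter on low counts (0.023) and all shared barcodes left out (0.59, adjusted p 0.0015). Among CD8 T cells Itgav was low in the Lef1 cluster (45.4, 49.7, 37.2 and 59.3 CPM) and high in the Gm156 and Gzmf cluster (608, 725, 551 and 727 CPM). Among conventional CD4 T cells it was highest in the cluster led by Tnfsf8 and Tnfsf11, at 604, 461, 702 and 685 CPM. In monocytes and macrophages Itgav stood at 258, 295, 219 and 309 CPM. There the combination was higher than anti-PD-1 by 0.40 ± 0.13 (adjusted p 0.0497), against a background of 5.77% of genes, and neither treated library passed against PBS. This call sits at the threshold: 4 of the alternative settings lost it, with adjusted p of 0.080 to 0.36.

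Itgb3, the beta chain, was low in all classes and nearly absent from some. Conventional CD4 T cells (52.6, 72.5, 72.9 and 70.7 CPM), regulatory T cells (52.9, 70.4, 72.9 and 70.5 CPM), NK cells and B cells had the most, and these classes overlapped. Monocytes and macrophages had 1.89, 2.54, 1.51 and 3.56 CPM, and the CD45-negative cells 7, 0, 3 and 22 UMIs in all, at most 0.636 CPM. In NK cells Itgb3 stood at 50.4, 56.0, 73.8 and 71.7 CPM, with both treated libraries above both PBS libraries. It rose after anti-PD-1, by 0.56 ± 0.14 (SE, adjusted p 0.020) on the log2 scale, against the 1.25% of genes noted above. The combination's 0.42 ± 0.13 had an adjusted p of 0.098, and the 2 treated libraries differed by -0.14 ± 0.15 (adjusted p 0.78), where 1.03% of genes passed. By cluster, anti-PD-1 was above both PBS libraries in 7 of 9, as in the Gzmc cluster with 65.4, 90.1, 116 and 114 CPM. The difference was 0.51 with cluster shares held equal. The call was lost with doublets kept (0.54, adjusted p 0.067) and with all shared barcodes left out (0.61, adjusted p 0.059), and DESeq2 gave no adjusted p. CD8 T cells had 13.1, 13.1, 15.1 and 19.8 CPM, and the combination's difference of 0.61 ± 0.15 had an adjusted p of 0.064. Its adjusted p ran from 0.0057 with no filter on low counts to 1 with DESeq2.

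**Figure D5:**
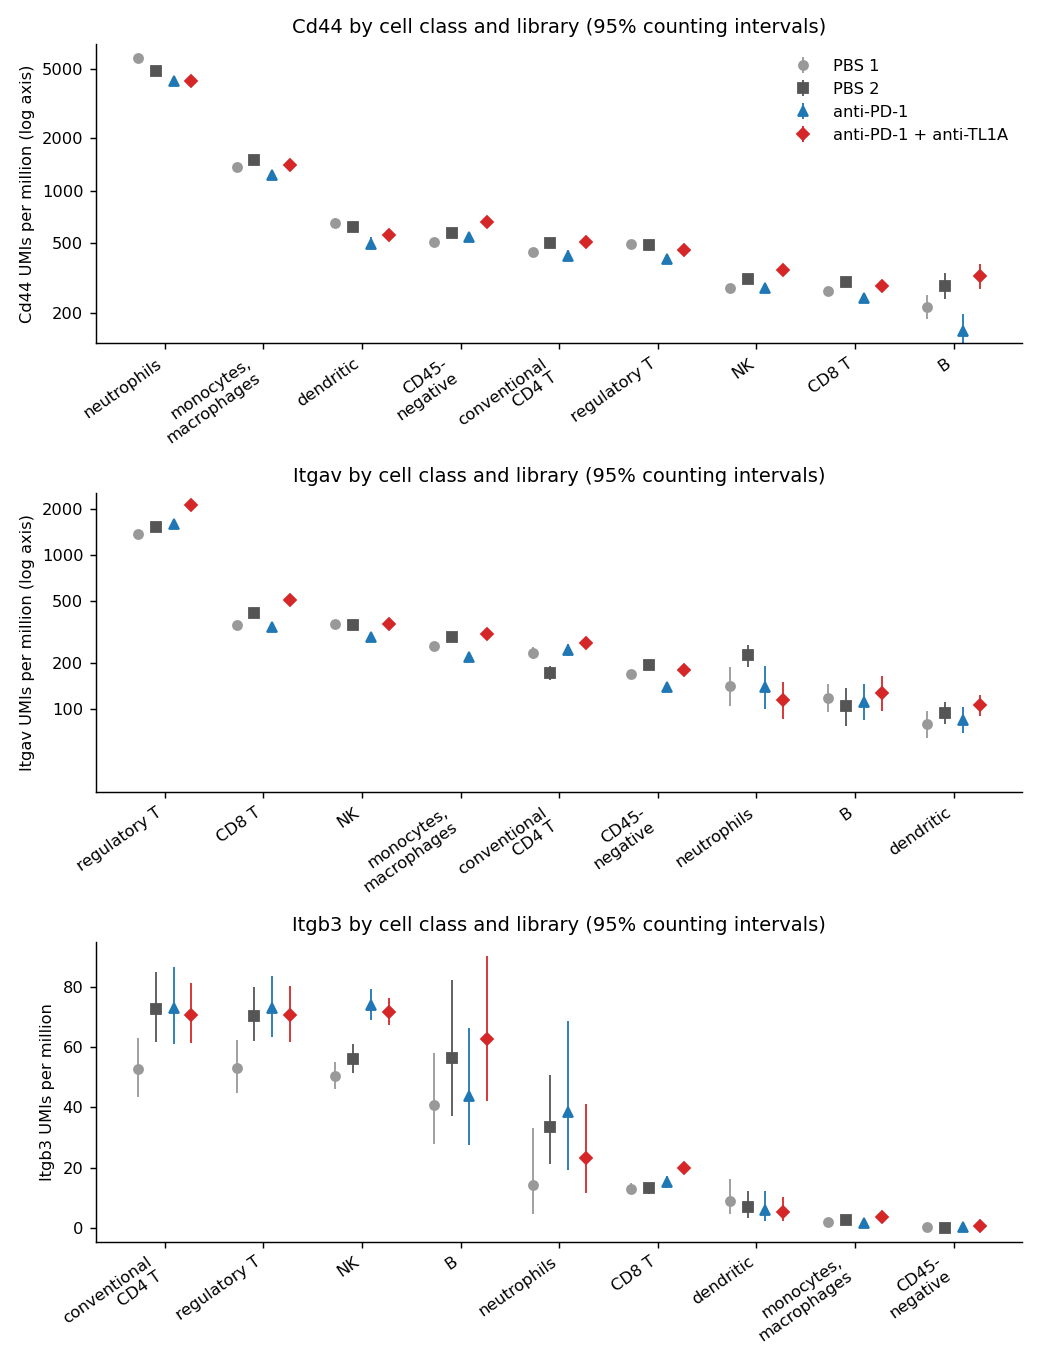
Cd44, Itgav (log axes) and Itgb3 (linear axis) in CPM, by class in falling order of the mean, 1 point per library with exact Poisson 95% intervals. Cd44 is led by neutrophils (4267 to 5770), Itgav by regulatory T cells (1362 to 2106), and Itgb3 lies near 0 in monocytes, macrophages and CD45-negative cells.

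A cell needs both chains to make the alpha-v beta-3 receptor. UMIs of Itgav and Itgb3 met in 19.9%, 32.3%, 19.1% and 23.9% of regulatory T cells, which was close to the 20.1%, 31.6%, 19.0% and 24.3% that independent detection would give. In NK cells they met in 23.5%, 25.1%, 19.0% and 22.4% of cells, above the 18.3%, 18.2%, 13.1% and 16.8% of independent detection in all 4 libraries, as a description, since deep cells show both genes more often. In CD8 T cells the shares were 7.16%, 10.6%, 6.06% and 12.5%. In monocytes and macrophages at most 2.92% of cells showed both. In neutrophils the shares were 0%, 3.14%, 0.680% and 0% (0, 6, 1 and 0 cells of 132, 191, 147 and 177). For the 0 of PBS 1 the exact interval reached 2.76%, and the floor of 3 counts was 2.27%. So the class with most Spp1 per UMI, the neutrophils, and the class with most Itgav, the regulatory T cells, were different, while NK cells were high in Spp1 and among the highest in Itgb3.

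A list of 47 other genes of the osteopontin system was read in the same fits, from other integrin chains and ligands to enzymes, cytoskeletal partners and factors that act on Spp1. It was drawn up with earlier results of these data known. Most did not pass. In CD8 T cells 1 of 34 tested members passed for anti-PD-1, where 2.45% of all genes did: the integrin chain gene Itgb7 rose by 0.66 ± 0.11 (adjusted p 0.012; 45.5, 42.2, 65.0 and 47.4 CPM), a call lost with DESeq2 and with doublets kept (adjusted p 0.099). For the combination 0 of 34 passed by edgeR, where 1.82% of genes did, and DESeq2 also gave 0, with 2 of 34 at an unadjusted p under 0.05. The list's median log2 difference was -0.01 and 0.04 in those comparisons, beside -0.01 and -0.02 over all genes. In conventional CD4 T cells, B cells and neutrophils 0 of 23, 0 of 20 and 0 of 26 passed in either comparison with PBS by edgeR, and 0 by DESeq2. At an unadjusted p under 0.05 there were 2, 2 and 1 members for anti-PD-1 and 2, 1 and 1 for the combination. Of all genes tested, 0.0377%, 0.223% and 0% passed for anti-PD-1 there, and 0.0377%, 0.297% and 0% for the combination. In regulatory T cells Tbx21, which encodes T-bet, a factor known to drive Spp1 in T cells, rose after anti-PD-1 by 0.64 ± 0.14 (adjusted p 0.030; 111, 132, 184 and 155 CPM), 1 of 27 against 0.708% of genes. That call was lost under 5 of 9 other settings, with adjusted p of 0.19 to 0.82, among them DESeq2 and all shared barcodes left out.

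Monocytes and macrophages had the most list members past the threshold, and many other genes passed there too. After anti-PD-1, 4 of 37 rose and 2 fell, where 11.2% of all genes passed, 6.06% higher and 5.14% lower. Itgb7 rose by 1.06 ± 0.11 (adjusted p 6.7e-10; 50.5, 49.8, 95.8 and 77.6 CPM), and so did the cytokine gene Mif (0.66), the transglutaminase gene Tgm2 (0.54) and the factor gene Spi1 (0.42). The chain Itgb6 fell by 2.38 ± 0.76 (adjusted p 0.031), from a level of only 1.80 and 2.22 CPM, and Itgb1 fell by 0.49 (409, 428, 274 and 376 CPM). With the combination, 2 rose and 1 fell of 37, where 4.62% of genes passed, 2.74% higher and 1.88% lower. The bone transcription factor gene Runx2 rose by 0.81 ± 0.11 (adjusted p 7.1e-06; 111, 141, 129 and 215 CPM), Itgb7 rose by 0.66 and Itgb5 fell by 0.41. Runx2 was also higher in the combination than in anti-PD-1, by 0.65 ± 0.13 (adjusted p 0.0033). None of these calls against PBS held with all shared barcodes left out: edgeR then called 0 of 36 members for anti-PD-1 (9 at an unadjusted p under 0.05) and 0 of 13629 genes, and none of the 3 members named for the combination passed.

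In NK cells 1 of 32 members rose with each treatment, where 1.25% and 1.72% of genes passed. Itgb7 rose after anti-PD-1 by 0.47 ± 0.13 (adjusted p 0.049; 76.2, 87.3, 106 and 99.7 CPM). The fibronectin gene Fn1 rose with the combination by 2.24 ± 0.31 (adjusted p 3.7e-06), and its level stayed low, at 1.83, 3.07, 3.44 and 11.5 CPM. In dendritic cells 1 of 29 passed, the proteoglycan gene Vcan with the combination (0, 1.88, 1.71 and 23.7 CPM; adjusted p 0.042), where 0.114% of genes passed. The Itgb7 call was lost under 6 of 9 other settings, the Vcan call under 4 of 9, and the Fn1 call with DESeq2, which gave no adjusted p for it. In CD45-negative cells 2 rose and 2 fell of 36 after anti-PD-1, where 2.09% of genes rose and 1.77% fell. Fn1 fell by 0.83 ± 0.17 (adjusted p 0.0021; 818, 1050, 485 and 713 CPM) and the adhesion gene Vcl by 0.55, while Mif rose by 0.58 and Srgn, a proteoglycan gene of leukocytes and a ligand of CD44, by 1.57 (2.66, 3.26, 7.98 and 5.78 CPM). With the combination Srgn rose by 1.03 and Runx2 by 0.44, 2 of 36, where 2.36% of genes passed. For the combination, the Runx2 call was lost under 5 of 9 other settings and the Srgn call under 4 of 9, DESeq2 among them for both. These calls in CD45-negative cells rest on PBS cells of which nearly all carry shared barcodes, and edgeR called 0 of 29 members in either comparison with those left out, with 0 and 2 at an unadjusted p under 0.05.

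The genes whose level ran most like Spp1 over 40 class and library sums of 10 classes were Selenon (Pearson r 0.91 on log2(CPM + 1)), Gm20528 (0.87), Tnrc18 (0.87), Ptpn12 (0.87) and Vegfa (0.86), out of 5697 genes searched. Those most like Itgb3 were Fam107b, Sipa1l1, Crem and Zdhhc18 (0.93 each) and Zfp831 (0.92). The points share 4 libraries and their depths, so these are descriptions.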

How the data were processed

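The deposited matrices hold raw UMI counts per gene and barcode, already filtered to cells by the authors. Cell Ranger 3.0.2 and mm10 are named per the submitters' processing notes, while the file headers name 7.1.0, and the treatment of intronic reads is not stated. The deposited barcode and gene lists, read only as names, gave no other values. Barcodes with under 200 genes or over 15% mitochondrial UMIs were left out. Doublet calls by scrublet's own threshold marked at most 0.016% of barcodes, so the highest-scoring 0.8% per 1000 barcodes were removed. Cells were clustered with Leiden (scanpy 1.11.5) without the 4 genes. For each class, UMIs were added up over the cells of a library, and edgeR 4.0.16 tested the sums (quasi-likelihood, TMM, minimum count 10) with Benjamini-Hochberg adjustment over all genes of a class and comparison and a threshold of 0.05. The PBS pair gives the only replicate spread, and may be technical, so p-values measure only the spread between those samples. The fits were checked on simulated data. Alternatives, DESeq2 1.42.0 among them, are given in the closing section. Intervals are exact Poisson and Clopper-Pearson, at 95%, and the floor for a count of 0 is 3 counts. Sequence and coordinates are from GENCODE for GRCm38. The named genes were the 4 members, the list members past the threshold (at most 6 a class) and the 5 genes most like Spp1 and Itgb3. Members and lists were chosen with earlier results of these data known.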

Additional observations from a re-analysis of the deposited data

Results flagged for a closer look

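Some differences from PBS had opposite signs in different classes, and the difference between classes was not tested. On the scale of log2 CPM, Spp1 after anti-PD-1 was 1.02 in CD8 T cells, -0.48 in monocytes and macrophages and -1.08 in neutrophils. With the combination it was 2.38 in CD8 T cells, 0.36 in NK cells and 0.58 in CD45-negative cells, and -2.04 in neutrophils. Cd44 with the combination was 0.26 in NK cells and 0.28 in CD45-negative cells, and -0.31 in neutrophils. All of these use the same PBS pair, and the CD45-negative values rest on cells with shared barcodes.

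Clusters set aside from the classes also held treated levels above the counting interval of both PBS libraries. In the combination, Itgav stood at 346 CPM in the cluster led by Trdc and Klra1, at 767 in the one led by Ccl8 and Il10, at 656 in the low-UMI cluster led by Tnfrsf4 and Izumo1r, at 284 in the one led by Ifit3 and at 1127 in the mixed Foxp3 cluster. Itgav in the gamma-delta cluster led by Il23r stood at 394 CPM after anti-PD-1 and 361 with the combination. Spp1 in the combination stood at 65.0 CPM in the Ccl8 and Il10 cluster and at 33.0 in the Ifit3 cluster. Cd44 stood at 561 CPM in the cluster led by Zbtb16 and Slc35f3 in the combination. After anti-PD-1 it stood at 478 in the low-UMI cluster led by Retnla and at 152 in the muscle-gene cluster led by Acta1 and Des.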

How the results depend on the processing

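Over 28 results, 199 values under alternative settings kept their call or stayed near the main value. Of values without a test, 27 moved by at least the PBS spread or, where the main result had a test, by its SE. A call or count was lost in 14 and gained in 14, and 2 reversed. In values without a test, a change of sign was not counted as reversed where the main result was within the PBS spread or did not pass. No paired analysis was possible because only the PBS libraries carry replicate numbers. Leaving out a PBS library leaves no residual degree of freedom, so it gives values with no test. Settings that drop shared barcodes, hold cluster shares equal or drop the top cell were chosen after seeing the data.

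For Spp1 in CD8 T cells, the log2 difference was 1.53 (anti-PD-1) and 2.81 (combination) with all shared barcodes left out. It was 1.47 and 2.91 with the B cell level subtracted. In cells with 0 UMIs of Apoe, C1qa, C1qb, C1qc and Csf1r it was 2.81 for the combination, with the cell of 557 Spp1 UMIs included. The log2 ratio of shares of cells with Spp1 was 1.0 and 2.18 at 1000 UMIs and 0.76 and 1.53 at 2000. Neutrophils gave -1.0 for the combination at equal cluster shares.

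For Spp1 in monocytes and macrophages after anti-PD-1, values were -0.50 with doublets kept, -0.13 without shared barcodes, -0.44 at equal cluster shares, -0.48 as the mean over cells and -0.42 to -0.29 with 1 PBS library left out. For the combination they were -0.15, 0.26, -0.059, 0.13 without the top cells, and -0.040 to 0.091 with 1 PBS library left out.

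Spp1 in CD45-negative cells was 0.48 with doublets kept and -0.22 without shared barcodes (anti-PD-1: -0.50). Spp1 in NK cells (combination) gained a call without shared barcodes, at 0.81, and was 0.52 at equal cluster shares. Itgb3 in NK cells was 0.54 and 0.61, with the call lost in both, and DESeq2 gave no adjusted p. Itgav in monocytes and macrophages (combination over anti-PD-1) lost its call at 0.42 after thinning, 0.33 with shared barcodes and low-UMI clusters kept, 0.41 without shared barcodes and 0.41 by DESeq2.

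The number of list members past the threshold in CD8 T cells after anti-PD-1 was 3 of 34 with RLE scaling, 0 of 34 with DESeq2 and 3 of 41 with no filter. Of all genes, 599 of 14596, 78 of 14596 and 839 of 23343 passed there. For the combination it was 3 of 41 with no filter, beside 859 of 23343 genes. In monocytes and macrophages it was 10 of 41 with no filter after anti-PD-1, beside 1663 of 23005 genes. For the combination there it was 1 of 37 with DESeq2 (89 of 14592 genes) and 6 of 41 with no filter (875 of 23005). In CD45-negative cells (combination) it was 0 of 36 with DESeq2 (41 of 15080 genes) and 1 of 42 with no filter (274 of 23765). In NK cells it was 0 of 32 with RLE and with DESeq2 after anti-PD-1, beside 112 and 29 of 13807 genes. It was 0 of 32 with DESeq2 for the combination there, beside 25 of 13807 genes.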
